A study of Homo sapiens with 42 samples.

Results

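In NCI-H661 cells, 2548 of 20033 protein-coding promoters (12.7%, 95% Wilson interval 12.3 to 13.2%) carried an island of H3K27ac and an island of H2AK119ub in both replicates of each mark, and these promoters are described here. A promoter was a window reaching 1500 bp upstream and 1500 bp downstream of where a gene's canonical transcript starts (the TSS), and an island is a broad enriched stretch that the authors called with EPIC2 against input DNA. Islands were counted at a log2 fold enrichment above 1 and a false discovery rate (FDR) below 0.05, the limits in the study's methods. With every deposited island counted, 2831 promoters held both marks. The other promoters comprised 9084 with H3K27ac alone, 2315 with H2AK119ub alone and 6086 with neither, where "alone" means that the other mark was not called in both replicates.

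NCI-H661 is an untreated lung large cell carcinoma line that expresses DPPA2 and DPPA4 from their own genes, and the study describes it as deficient in SMARCA4, a chromatin remodeller subunit. NCI-H1299 is a non-small cell lung cancer line that does not express the pair by itself. Its derivative used here carries stably integrated cDNA for FLAG-tagged DPPA2 and V5-tagged DPPA4 behind a tet-response element, in both conditions. It was cultured for 7 days with 2 µg/mL doxycycline (DOX) or with water (control), so an effect of the drug and one of the induced proteins cannot be told apart in these samples. The chromatin immunoprecipitation (ChIP-seq) libraries numbered 18 in NCI-H661 and 20 in NCI-H1299, with 2 per mark, cell line and condition, except for single libraries of KDM2A and SUZ12.

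H3K27ac is deposited by the acetyltransferases p300 and CBP at active promoters and enhancers. H2AK119ub is deposited by Polycomb repressive complex 1 (PRC1) through RING1A or RING1B, often at the CpG islands of developmental genes, where Polycomb repressive complex 2 (PRC2), with its core subunit SUZ12, methylates H3K27. Acetyl and methyl groups compete for the same H3K27 residue, whereas H2AK119ub lies on another histone, so a nucleosome can in principle carry H3K27ac and H2AK119ub together. KDM2A binds unmethylated CpG through a zinc finger, and DPPA2 and DPPA4 are DNA- and nucleosome-binding proteins of the early embryo. ChIP-seq reads a bulk of cells, so both marks on the same nucleosome and each mark in different cells or on different alleles cannot be told apart.

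The sequences just upstream of the start site show what kind of DNA carried both marks. The 250 bases before the TSS of 7 promoters are printed 5′ to 3′ on the strand of the gene, from RefSeq on GRCh38.p14, in lower case with every CpG in capitals (motif CG, which reads alike on both strands). VGF, CYP26A1 and DLX1 are shown because the study drew attention to them, FAM171A1, EXT2 and ODC1 because they ranked among the 10 highest of the promoters with both marks, and NSD2 because it had H3K27ac and no H2AK119ub.
VGF (chr7:101165570-101165819, minus strand): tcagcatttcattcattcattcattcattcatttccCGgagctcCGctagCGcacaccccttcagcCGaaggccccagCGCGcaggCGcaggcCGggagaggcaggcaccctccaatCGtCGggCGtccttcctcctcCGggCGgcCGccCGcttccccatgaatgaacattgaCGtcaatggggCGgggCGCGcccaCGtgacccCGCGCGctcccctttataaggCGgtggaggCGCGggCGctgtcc
CYP26A1 (chr10:93073643-93073892, plus strand): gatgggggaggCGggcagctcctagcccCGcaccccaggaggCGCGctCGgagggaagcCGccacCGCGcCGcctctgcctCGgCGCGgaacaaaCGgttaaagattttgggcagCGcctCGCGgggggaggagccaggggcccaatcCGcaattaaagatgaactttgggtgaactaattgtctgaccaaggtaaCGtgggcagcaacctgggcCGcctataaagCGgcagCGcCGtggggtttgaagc
DLX1 (chr2:172085257-172085506, plus strand): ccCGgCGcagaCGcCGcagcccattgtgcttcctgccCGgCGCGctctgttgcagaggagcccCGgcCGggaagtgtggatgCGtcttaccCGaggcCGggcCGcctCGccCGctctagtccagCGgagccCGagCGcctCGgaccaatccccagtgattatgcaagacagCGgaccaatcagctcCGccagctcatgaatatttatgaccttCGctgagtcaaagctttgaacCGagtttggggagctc
FAM171A1 (chr10:15371290-15371539, minus strand): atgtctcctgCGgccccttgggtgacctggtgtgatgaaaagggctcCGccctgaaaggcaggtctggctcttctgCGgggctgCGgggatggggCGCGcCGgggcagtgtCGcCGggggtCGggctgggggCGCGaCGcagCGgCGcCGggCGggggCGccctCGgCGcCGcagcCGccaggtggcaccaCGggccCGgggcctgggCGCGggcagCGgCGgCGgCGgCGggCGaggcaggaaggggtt
ODC1 (chr2:10448328-10448577, minus strand): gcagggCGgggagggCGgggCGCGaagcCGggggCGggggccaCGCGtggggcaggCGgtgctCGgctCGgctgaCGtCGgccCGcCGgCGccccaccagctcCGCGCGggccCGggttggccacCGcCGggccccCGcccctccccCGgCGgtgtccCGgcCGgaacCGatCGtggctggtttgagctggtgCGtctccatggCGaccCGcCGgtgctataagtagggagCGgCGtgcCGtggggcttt
EXT2 (chr11:44095428-44095677, plus strand): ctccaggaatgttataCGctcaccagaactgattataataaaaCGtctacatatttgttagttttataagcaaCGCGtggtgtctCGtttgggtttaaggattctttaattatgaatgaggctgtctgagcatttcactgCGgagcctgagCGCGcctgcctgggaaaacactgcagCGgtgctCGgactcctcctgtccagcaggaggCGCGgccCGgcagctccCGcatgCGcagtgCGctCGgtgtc
NSD2 (chr4:1871143-1871392, plus strand): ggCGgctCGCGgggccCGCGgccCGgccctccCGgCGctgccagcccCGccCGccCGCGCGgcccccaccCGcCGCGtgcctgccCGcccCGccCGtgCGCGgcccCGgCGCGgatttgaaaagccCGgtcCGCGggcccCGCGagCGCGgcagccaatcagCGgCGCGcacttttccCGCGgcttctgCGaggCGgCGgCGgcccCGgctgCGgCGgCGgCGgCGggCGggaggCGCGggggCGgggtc

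The CpG count of these stretches was 27 at VGF, 22 at CYP26A1, 23 at DLX1, 32 at FAM171A1, 36 at ODC1 and 17 at EXT2. NSD2, which lacked H2AK119ub, had 50, the most of the 7. Among the 1809 promoters with both marks that matched the RefSeq table, the median was 27 CpG (quartiles 20.0 and 33.0), against 22 with H3K27ac alone, 20 with H2AK119ub alone, 4 with neither and 19 over all 14588 matched promoters. At least 10 CpG stood in 93.1% of the stretches with both marks, against 72.6% of all. The count therefore set promoters with both marks apart mainly from those with neither.

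Over the whole 3-kb window, GC content separated the classes further. The median was 60.9% with both marks, 52.7% with H3K27ac alone, 57.0% with H2AK119ub alone, 46.9% with neither and 52.8% over all promoters. A CpG island (any 500 bp of the promoter reaching 55% GC and a CpG observed/expected ratio of 0.65) was present in 94.0% of the promoters with both marks and in 93.2%, 81.9% and 30.2% of the other classes in that order. Among CpG island promoters alone, the share with both marks was 1.55% in the lowest of 4 about equal groups by GC content, 4.95% in the next, 18.0% in the one after and 41.2% in the highest. GC content also affects amplification and input coverage in ChIP-seq, and its part in the island calls was not tested.

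**Figure D1:**
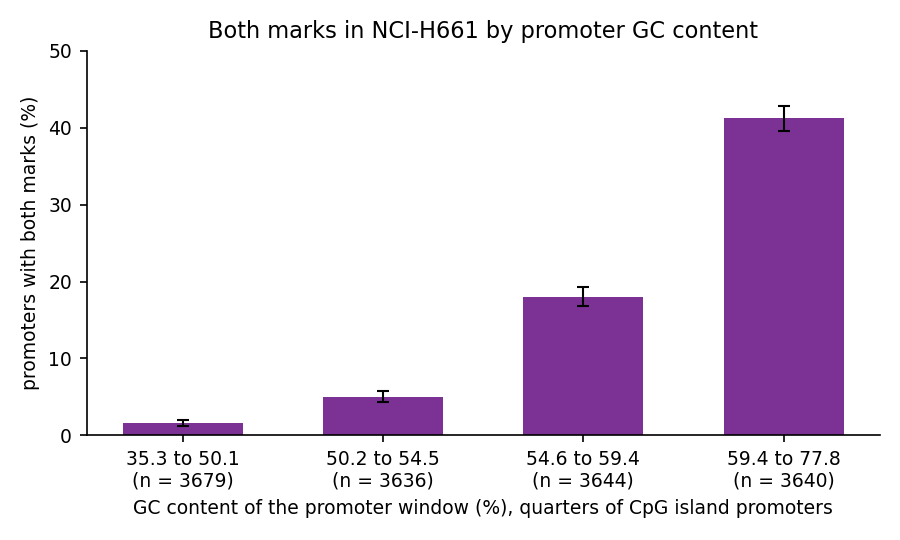
Share of CpG island promoters with both marks in NCI-H661 (percent, bars) in 4 about equal groups of rising GC content (x axis, percent), with 95% Wilson intervals. The share was 1.55% in the lowest group and 41.2% in the highest.

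Reads in the kept islands numbered 488201 to 6961886 per NCI-H661 library and 137991 to 3657645 per NCI-H1299 library, which is not the sequencing depth. Replicates of a mark were unequal. The NCI-H661 H2AK119ub replicates held 1318183 and 6649708 island reads, and the 1692 promoters that missed the set for want of an H2AK119ub island in replicate 1 alone made up the largest such group. Of the markers examined for cell identity, H3K27ac islands in both replicates stood at 2 of 5 lung markers in NCI-H661 (NKX2-1 and EPCAM, with SFTPB and KRT7 in 1 replicate and NAPSA in none), 3 of 3 mesenchymal markers and 1 of 5 markers of other cell types. In NCI-H1299 the same counts were 1, 3 and 0 in DOX and 0, 3 and 0 in control. The promoters of DPPA2 and DPPA4 had H3K27ac in both NCI-H661 replicates and in 0 NCI-H1299 libraries.

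Because the promoters were selected on H3K27ac and H2AK119ub in NCI-H661, the strength of these marks is given as a description. The highest H3K27ac island at each promoter had a median log2 fold over input of 2.95 in replicate 1 and 3.19 in replicate 2, close to the 3.08 and 3.43 of promoters with H3K27ac alone. For H2AK119ub the medians were 2.22 and 2.15, against 2.40 and 2.35 at promoters with H2AK119ub alone. H3K27ac islands were 1300 and 1700 bp wide in the median and H2AK119ub islands 1100 and 1500 bp, against 1200 and 2400 bp for H2AK119ub alone. The weakest of the 4 folds had a median of 1.90 and quartiles of 1.54 and 2.30, and it came from an H2AK119ub library at 957 promoters for replicate 1 and 1209 for replicate 2. LRRC37A3 (1.003), NAGLU (1.003) and HMGCLL1 (1.004) lay just inside the limit by their weakest fold, and PARP12 (0.995), CAPZB (0.994) and SAYSD1 (0.994) just outside it.

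The marks were offset along the gene. Islands of all 4 libraries shared bases at 2051 of the 2548 promoters (80.5%), with a median overlap of 597 bp of the window, and 57.5% of the H2AK119ub bases were also H3K27ac bases. The TSS base itself lay in both H3K27ac libraries at 60.6% of promoters and in both H2AK119ub libraries at 13.9%. H3K27ac coverage was highest 250 bp downstream of the TSS, at 90.1% of promoters. H2AK119ub was highest 650 bp downstream (74.9%) and was seen at 22.8% just upstream of the TSS (-50 bp), giving a trough over the start site. At promoters with H2AK119ub alone the maximum lay at the same distance (76.2% at 650 bp) while the value at -50 bp was 63.8%. These are values of the marks used for the selection and were not tested.

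**Figure D2:**
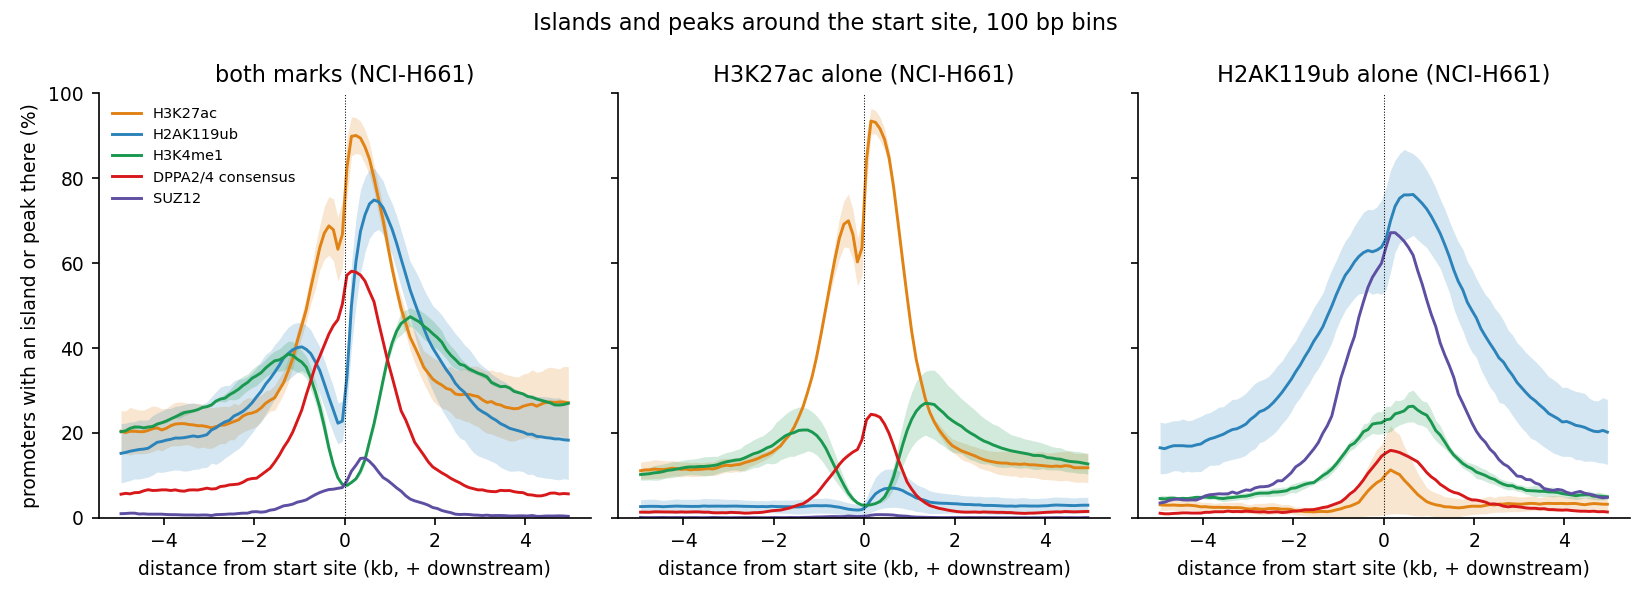
Share of promoters (percent) with an island or peak in each 100 bp bin from 5 kb upstream to 5 kb downstream of the start site, for promoters with both marks, H3K27ac alone and H2AK119ub alone in NCI-H661. Lines are means of the replicates and bands span them, with single lines for the DPPA2/4 consensus and SUZ12. With both marks, H2AK119ub was highest at 650 bp and dipped to 22.8% at -50 bp, where promoters with H2AK119ub alone had 63.8%.

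The selected windows were not all separate. They covered 2356 stretches of DNA after overlapping windows were joined, and 398 of the promoters shared an H2AK119ub domain with at least 1 other, up to 4 in a domain. A protein-coding TSS on the opposite strand within 1000 bp upstream was present at 7.50%, against 17.6% with H3K27ac alone and 0.950% with H2AK119ub alone. Chromosome 20 had the highest share of promoters with both marks (168 of 546, 30.8%) and chromosome 17 the next (305 of 1186, 25.7%), whereas chromosome X had 16 of 859 (1.86%). Input reads under the H661 islands were 6.54 to 7.67 per kb on chromosome 20, 4.84 to 5.45 on chromosome 17 and 3.77 to 3.97 on chromosome X, and the part of copy number in these shares was not tested.

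DPPA2 and DPPA4 were called at most of these promoters. A DPPA2/4 consensus peak, shared by the narrow peak lists of all 4 DPPA2 and DPPA4 libraries, overlapped 1703 promoters with both marks (66.8%). The share was 31.1% with H3K27ac alone, 19.0% with H2AK119ub alone, 4.96% with neither and 26.3% over all promoters. A peak in each of the 4 lists stood at 79.9% of the promoters with both marks, and 2.86% had a peak in none. Among CpG island promoters in the 4 groups of rising GC content, the consensus share was 31.6, 36.7, 58.8 and 79.0% with both marks and 12.3, 27.7, 47.2 and 67.6% with H3K27ac alone. It was thus higher with both marks in each group, and it differed more between the lowest and highest GC groups than between the classes within a group. The consensus peaks were densest 150 bp downstream of the TSS (58.1%). Their maximum lay at the same distance with H3K27ac alone (24.4%) and with H2AK119ub alone (15.9%).

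The factors of the Polycomb and CpG-binding machinery divided differently. A KDM2A peak stood at 725 promoters with both marks (28.5%), against 13.8%, 3.84% and 0.772% with H3K27ac alone, H2AK119ub alone and neither. SUZ12 was found at 541 (21.2%), far below the 78.6% of promoters with H2AK119ub alone and above the 1.86% with H3K27ac alone. All 3 of consensus, KDM2A and SUZ12 met at 5.34% and none of them at 22.6%. KDM2A and SUZ12 each rest on 1 library, and the caller matters. With EPIC2 islands in place of narrow peaks, an alternative chosen after seeing the data, KDM2A stood at 88.2% of the promoters with both marks, against 75.1% with H3K27ac alone and 29.8% with H2AK119ub alone. An island in each of the 4 DPPA2 and DPPA4 libraries stood at 92.4%, against 70.5 and 47.9%, and SUZ12 at 36.5%, against 7.86 and 86.2%. The order of these 3 classes was the same with either caller, while the ratio of both marks to H3K27ac alone was smaller with EPIC2.

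**Figure D3:**
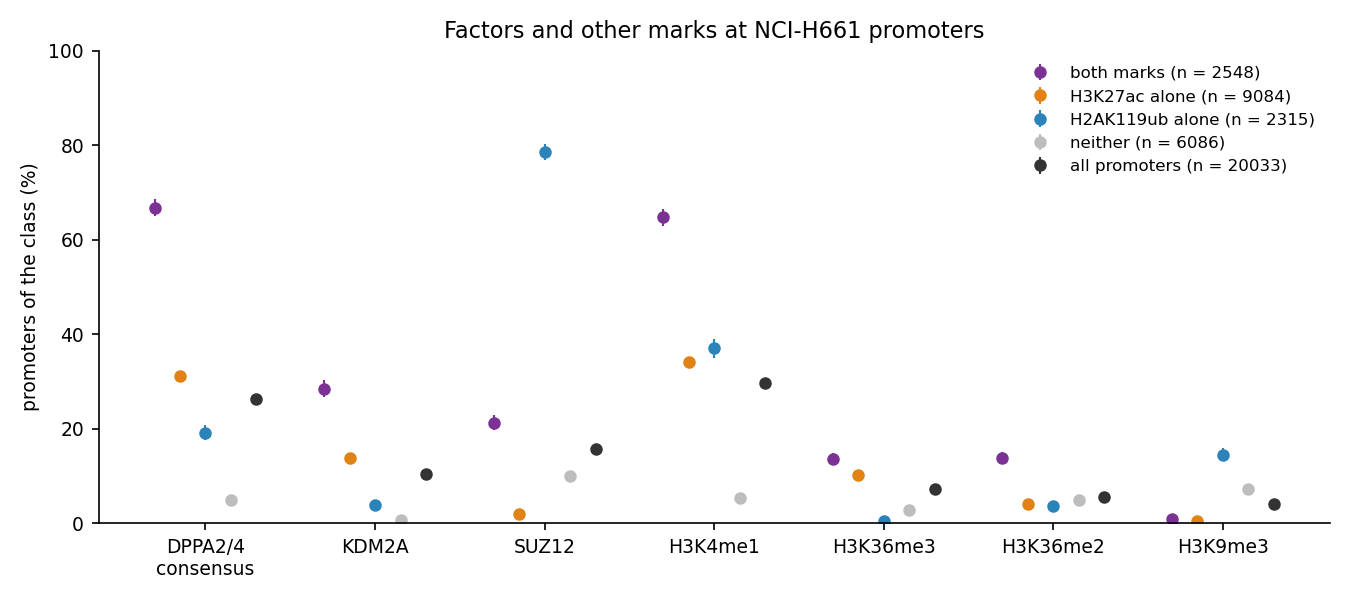
Share of promoters of each class (percent, points, with 95% Wilson intervals) that held a factor peak or an island of another histone mark in NCI-H661. The consensus, KDM2A and H3K4me1 were highest at promoters with both marks (66.8%, 28.5% and 64.8%), and SUZ12 was highest with H2AK119ub alone (78.6%).

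H3K4me1, a mark of enhancers and promoter flanks, was called in both replicates at 64.8% of promoters with both marks, against 34.1% with H3K27ac alone, 37.0% with H2AK119ub alone and 5.31% with neither. It flanked the start site, with 7.85% of promoters covered at -50 bp and 47.4% at 1450 bp downstream. Promoters with H3K27ac alone had the same shape, with 3.01% covered at -50 bp and the maximum at 1350 bp downstream. At promoters with H2AK119ub alone H3K4me1 was highest nearer the start, at 650 bp (26.3%). H3K36me3, the mark of transcribed gene bodies, reached 13.5% of the windows with both marks, 10.1% with H3K27ac alone and 0.389% with H2AK119ub alone. H3K36me2 was called at 13.7%, 4.00% and 3.67% of these classes, from unequal replicates of 19.3% and 40.2% at promoters with both marks. H3K9me3, the mark of constitutive heterochromatin, was called at 0.903%, against 14.5% with H2AK119ub alone. Intervals for these shares cover counting of promoters only, and promoters of a library are not replicates.

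A SUZ12 narrow peak split the promoters with both marks into unlike groups. With EPIC2 islands SUZ12 stood at 930 of the 2548 promoters. The group without a narrow peak therefore included promoters with a SUZ12 island. The split was made on narrow peaks only, and a missing peak does not show that SUZ12 was absent. The 541 with a SUZ12 peak had H3K4me1 at 47.7% and H3K36me3 at 1.85%, against 69.4% and 16.7% of the 2007 without one. Their H3K27ac islands were narrower, with medians of 900 and 1200 bp in the replicates against 1500 and 1900 bp. Their H2AK119ub islands were wider, at 1300 and 2000 bp against 1000 and 1400 bp. DPPA2/4 did not follow this split by narrow peaks, since the consensus share was 66.9% with a SUZ12 peak and 66.8% without one. KDM2A followed the consensus instead, with a peak at 36.1% of the promoters that had a consensus peak and 13.1% of those that did not.

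Gene lists compiled for this tissue and treatment placed 313 of the promoters with both marks in at least 1 of 37 lists and 2235 in none. Beside the 12.7% of all promoters, the share with both marks was highest among Notch ligands, receptors and targets (11 of 21, 52.4%) and HOX cluster genes (19 of 39, 48.7%). It was 37.9% among semaphorins and plexins (11 of 29), 37.5% among Frizzled receptors and LRP co-receptors (6 of 16), 37.5% among mesenchymal genes (9 of 24) and 31.8% among ephrins and Eph receptors (7 of 22). At the other end stood the cytosolic ribosomal proteins (5 of 86), proteasome subunits (2 of 44) and numbered ZNF genes (37 of 508), in which most promoters had H3K27ac alone. Replication-dependent histones had 0 of 69 with both marks and 61 with H3K27ac alone, and the olfactory receptors 0 of 400. Lists of this size give wide intervals, such as 32.4 to 71.7% for the Notch genes, and no list was tested. The lists were not matched for GC content, and the share was 41.2% in the highest GC group of CpG island promoters.

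**Figure D4:**
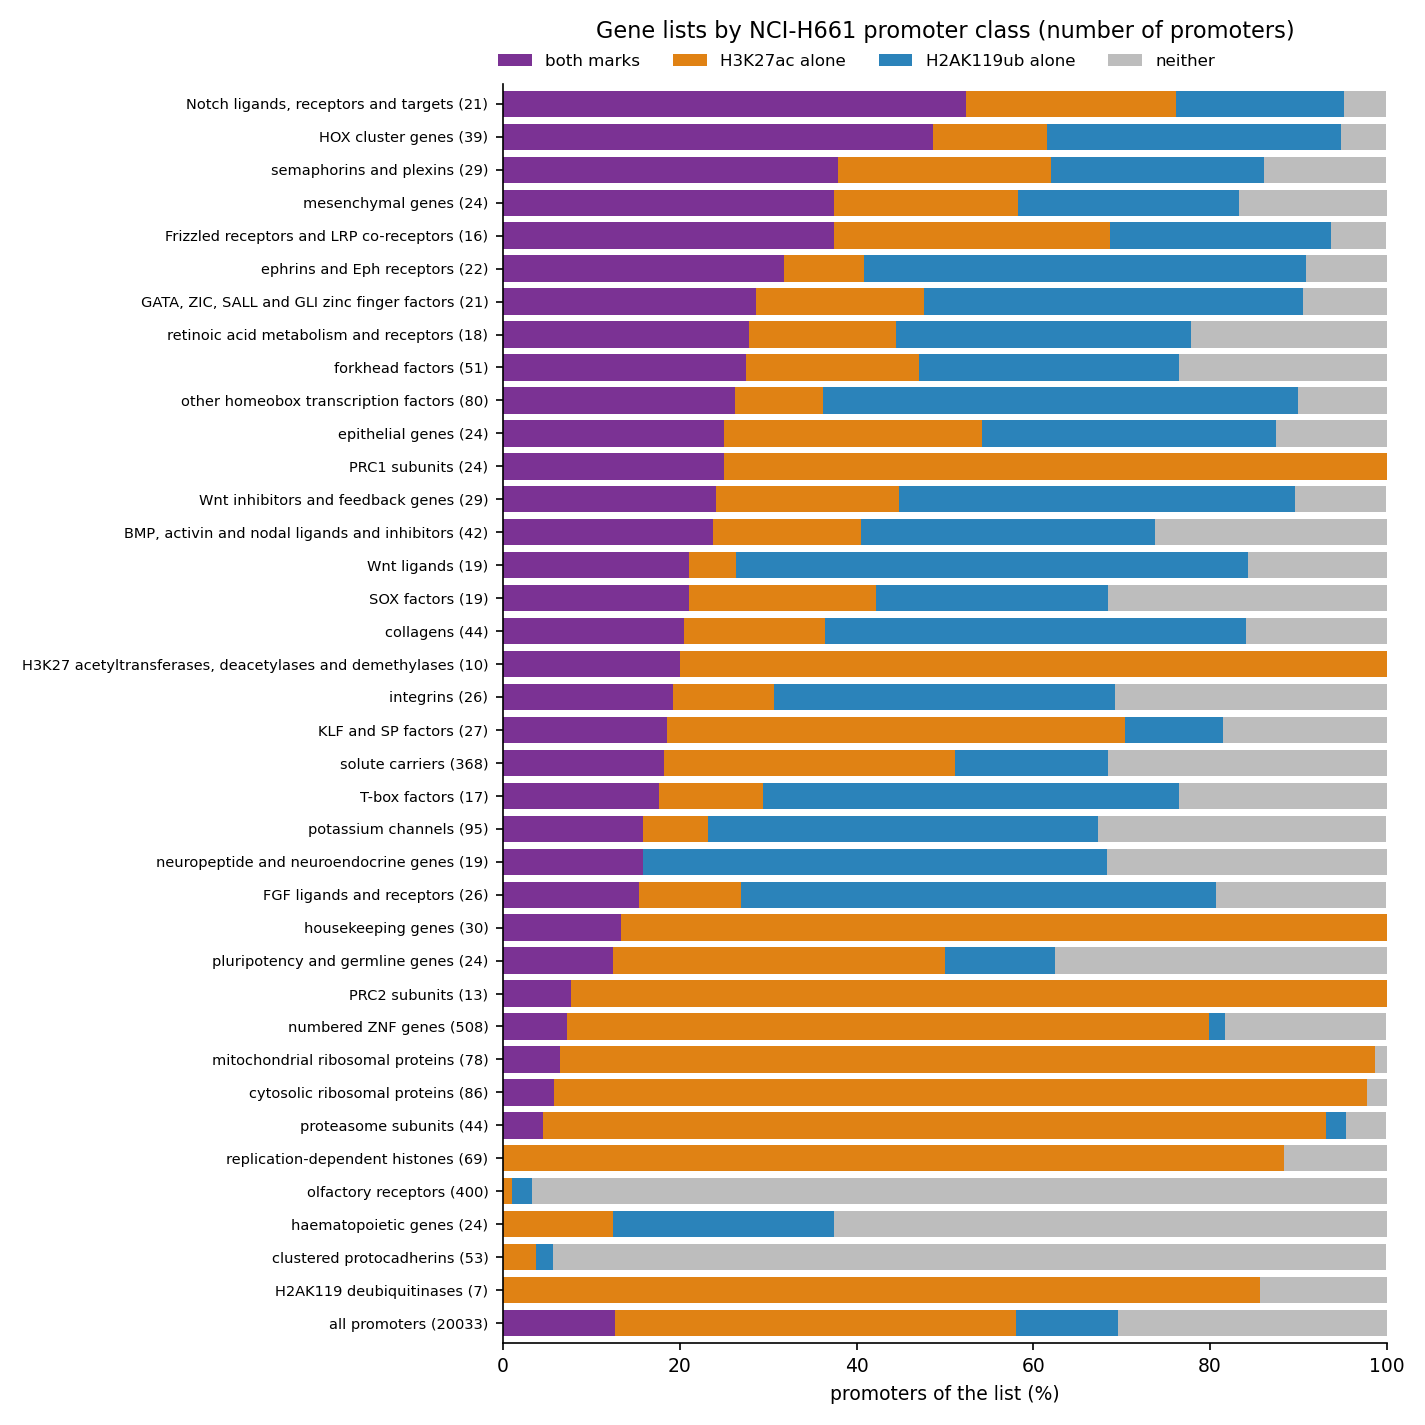
Promoters of each gene list (percent of the list, with its number of promoters) divided by NCI-H661 class, sorted by the share with both marks, with all promoters at the bottom. Notch and HOX genes lead with 52.4% and 48.7%, against 12.7% of all promoters.

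Among the HOX genes, which pattern the body axis, the promoters with both marks included HOXA4, HOXA7 and HOXA10, HOXB4, HOXB5 and HOXB8, several HOXC genes, and HOXD8 and HOXD9. A further 13 HOX promoters had H2AK119ub alone. HOXB8 had H3K27ac log2 folds of 2.95 and 3.43 and H2AK119ub log2 folds of 3.20 and 2.65. HOXA4 had H3K27ac folds of 2.95 and 3.19 and H2AK119ub folds of 1.97 and 2.42, and it held narrow peaks of both KDM2A (log2 fold 2.78) and SUZ12 (3.55). The clustered HOX genes lie close together, so neighbours can share an island and are not independent. SUZ12 stood at 9 of the 19 and the DPPA2/4 consensus at 14.

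Other homeobox transcription factors more often had H2AK119ub alone (43 of 80) than both marks (21 of 80). DLX1 and DLX2, a neighbouring pair on opposite strands with their 3′ ends facing each other, which acts in forebrain and jaw development, were both in the set. DLX1 (chr2:172084007-172087007) had H3K27ac folds of 3.20 and 3.10 on islands 9300 and 9000 bp wide, beside H2AK119ub folds of 2.83 and 2.52 on islands of 1100 and 1200 bp. DLX2 (chr2:172101400-172104400) had 3.10 and 3.52 for H3K27ac and 2.09 and 1.62 for H2AK119ub. At both genes the acetylation was several times broader than the ubiquitylation, and both held a DPPA2/4 consensus peak and no KDM2A or SUZ12 narrow peak. SIX3, an eye and forebrain regulator, had H3K27ac folds of 4.40 and 3.88 and H2AK119ub folds of 3.09 and 3.42.

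The signalling lists held genes of each role. For Notch, both marks stood at the ligands JAG1, JAG2 and DLL3 and the receptors NOTCH1 and NOTCH3. They also stood at the fringe glycosyltransferases LFNG and RFNG, which modify the receptors, and at HES2, HES4, HES6 and HES7 of the HES family. HES6 had H3K27ac folds of 3.70 and 4.05 with H2AK119ub folds of 2.76 and 3.11, and DLL3 stood near the limit with 1.27 and 1.61 for H3K27ac and 1.29 and 1.39 for H2AK119ub. For Wnt, both marks stood at 4 of 19 ligands, of which 11 had H2AK119ub alone, at 6 of 16 receptors and co-receptors, among them FZD2, FZD7 and LRP5, and at 7 of 29 inhibitors and feedback genes. AXIN2, a feedback inhibitor in that last list, had H3K27ac folds of 3.44 and 4.19 and H2AK119ub folds of 3.96 and 2.70, and it held KDM2A, SUZ12 and the consensus. Within this list 6 of the 7 promoters had SUZ12, against 0 of 6 among the receptors and co-receptors.

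Guidance and adhesion genes followed. Of the ephrins and Eph receptors, EFNA2 had H3K27ac folds of 6.20 and 4.58 and H2AK119ub folds of 3.30 and 2.91, and the receptor EPHB2 had 3.85 and 4.90 beside 5.04 and 3.05. PLXNB1, a receptor for semaphorins, had H3K27ac folds of 7.44 and 7.78 with unequal H2AK119ub folds of 6.24 and 2.00. Among the mesenchymal genes, VIM, which encodes the intermediate filament vimentin, had H3K27ac folds of 3.80 and 3.63 and H2AK119ub folds of 3.80 and 3.47, from 17 and 27 H2AK119ub reads. The transcription factors ZEB1, SNAI1 and TWIST1 of epithelial to mesenchymal transition and the kinase AXL were in the set as well. Solute carriers, the largest list with a raised share, had 67 of 368 (18.2%).

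Genes of the Polycomb machinery were themselves divided. All 24 promoters of PRC1 subunits had H3K27ac, 6 of them with H2AK119ub as well, among them RNF2 (RING1B, the catalytic subunit), PCGF2 and KDM2B. Of 13 promoters of PRC2 subunits, EPOP was the only one with both marks, at H3K27ac folds of 2.03 and 3.24 and H2AK119ub folds of 2.44 and 1.57, and the other 12 had H3K27ac alone. Among 30 housekeeping promoters both marks stood at ACTB, GAPDH, ALDOA and SDHA. GAPDH rested on 26 and 31 H2AK119ub reads.

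Of the genes that the study singled out, VGF, a neurosecretory precursor (chr7:101164069-101167069), had H3K27ac folds of 3.02 and 3.78 and H2AK119ub folds of 2.67 and 3.04. It had a DPPA2/4 consensus peak, a SUZ12 peak (log2 fold 2.03) and H3K4me1 folds of 3.06 and 2.50. CYP26A1, which degrades retinoic acid (chr10:93072393-93075393), had H3K27ac folds of 3.32 and 3.45 and H2AK119ub folds of 1.99 and 3.74, with 1400 bp shared by all 4 libraries. SALL4, a zinc finger factor of embryonic stem cells (chr20:51801021-51804021), had H3K27ac folds of 3.07 and 3.30 on islands 5200 and 5300 bp wide, and H2AK119ub folds of 1.22 and 1.48 on 17 and 34 reads, near the limit. NSD2, an H3K36 dimethyltransferase (chr4:1869893-1872893), had H3K27ac folds of 3.98 and 4.68, a consensus peak and a KDM2A peak but no H2AK119ub island, so it was outside the set.

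The 10 promoters ranked highest by the lowest of their 4 fold percentiles were FAM171A1, EXT2, FNBP1, MOSMO, ENSG00000284341, ODC1, CNN3, PTPN3, DISP3 and TTLL12. The H3K27ac folds of FAM171A1 were 5.95 and 7.21, and its H2AK119ub folds were 5.71 and 4.09. EXT2, a heparan sulphate polymerase subunit, had 6.34 and 6.85 beside 4.11 and 6.24. ODC1, the first enzyme of polyamine synthesis, had 6.21 and 4.97 beside 5.88 and 5.24. High folds did not mean many reads, since FAM171A1 rested on 16 and 83 H2AK119ub reads, EXT2 on 21 and 46 and ODC1 on 18 and 23. Of these 10 promoters, 8 had a consensus peak, and the exceptions FAM171A1 and DISP3 each had a SUZ12 peak. The 17 CpG of the EXT2 stretch and the 36 of ODC1 span much of the range among the sequences above, at similar folds.

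In NCI-H1299 the same promoters had H3K27ac in part of the libraries. The shares with an H3K27ac island were 80.4 and 66.8% in DOX and 47.6 and 54.8% in control. Both DOX libraries were above both control libraries, by 22.4 percentage points in the mean (exact permutation test over 2 against 2 libraries, two-sided p = 0.33, the smallest that this design allows). Over all promoters the same difference was 11.5 points. Within replicate numbers the differences at members were 32.8 and 12 points. The study describes complete batches, but the labels do not say that same-numbered libraries shared a batch. The first DOX library held 2777360 island reads and the second 979366, against 774886 and 759619 in control. Without it the difference was 15.6 points, and 7.76 points over all promoters.

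For H2AK119ub the shares were 48.0 and 55.7% in DOX and 33.9 and 55.6% in control, and the libraries of the conditions overlapped when replicate numbers were ignored (7.14 points, exact permutation two-sided p = 0.667). Within replicate numbers the differences were 14.2 and 0.118 points, neither of them negative. A paired exact test over 2 numbers cannot go below p = 0.50, the value it gave for both marks. Without control replicate 1, which held 302740 island reads against 570987 in control replicate 2, the difference was -3.71 points. Over all promoters and all 4 libraries the difference was 0.372 points. H3K4me1 stood at 69.9 and 74.1% in DOX and 57.5 and 67.7% in control, a difference of 9.40 points, against 5.01 over all promoters. H3K36me3 was at 13.2 and 12% in DOX and 7.77 and 9.69% in control, below the 15.2 and 13.5% in DOX and 10.9 and 13% in control over all promoters. H3K9me3 was at no more than 1.69% in any library, against up to 2.43% over all promoters. Of the H3K27ac and H2AK119ub islands in DOX 17.9 to 28.5% had 0 input reads, against 33.1 to 41.6% in control, and the part of input depth in these shares was not tested.

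**Figure D5:**
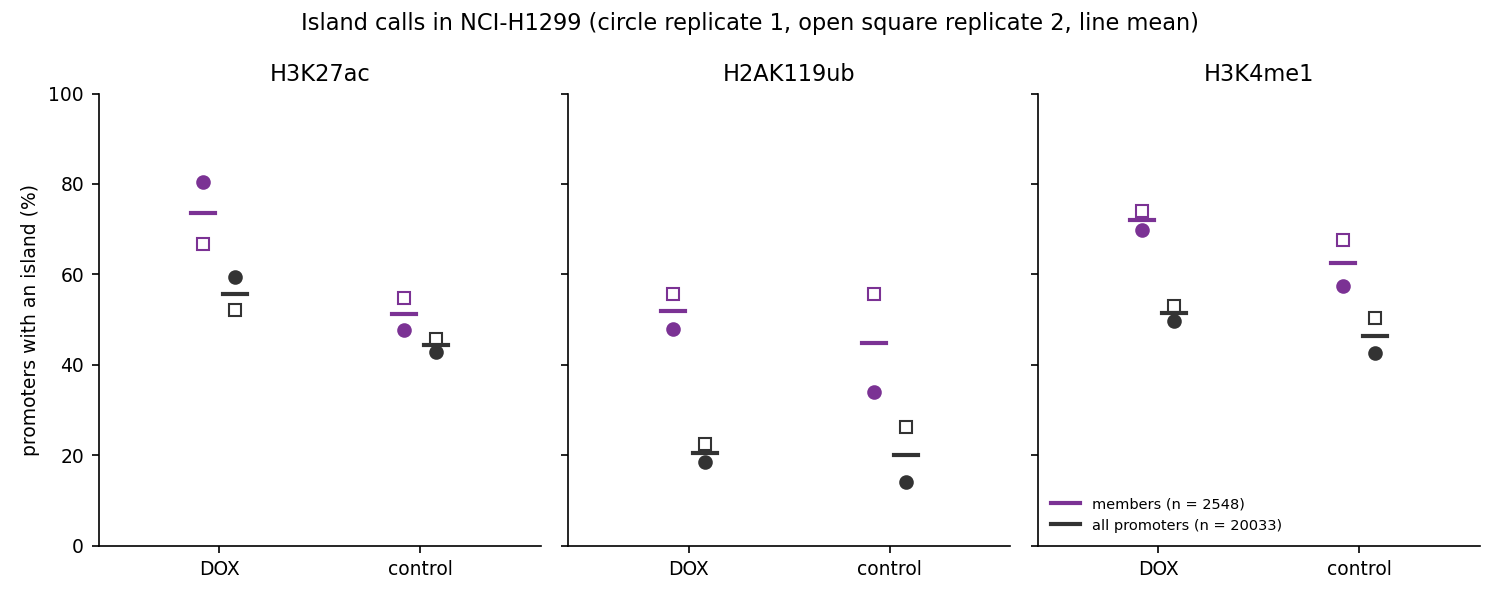
Share of promoters (percent) with an island of H3K27ac, H2AK119ub or H3K4me1 in each NCI-H1299 library (circle, replicate 1; open square, replicate 2; line, mean), for the 2548 promoters with both marks in NCI-H661 (members) and for all 20033 promoters, in DOX and control. Members had H3K27ac at 80.4 and 66.8% in DOX and 47.6 and 54.8% in control, whereas the H2AK119ub libraries stood at 48.0 and 55.7% in DOX and 33.9 and 55.6% in control.

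Both marks together, each in both replicates, were called at 689 of the 2548 promoters in DOX (27%) and at 298 in control (11.7%), beside 7.84% and 4.26% of all promoters. H3K27ac alone was called at 38.9% in DOX and 28.8% in control, H2AK119ub alone at 10.2 and 12.9%, and neither at 23.8 and 46.6%. H3K27ac alone in both NCI-H1299 conditions was called at 18.3%, below the 29.6% of all promoters. H2AK119ub alone in both conditions stood at 3.89%, beside 1.38% of all promoters, and neither mark in both at 19.7%, beside 42.2%. Promoters that had H3K27ac alone in NCI-H661 had it more often there, in 85.9% in DOX and 68.5% in control, against 66.0 and 40.5% for those with both marks. Promoters with H2AK119ub alone in NCI-H661 had H2AK119ub in 16.2% in DOX and 14.3% in control, against 37.3 and 24.6%. In the other direction, 43.9% of the 1571 promoters with both marks in DOX and 34.9% of the 853 in control belonged to the NCI-H661 set.

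Changes of call between conditions were counted where both libraries of one condition had an island and neither library of the other did. H3K27ac was gained in DOX in this sense at 264 promoters (10.4%), beside 5.03% of all promoters, and lost at 0, beside 0.0799%. With the second DOX library alone against control, it was gained at 10.2% of those with a consensus peak and 12% of those without. H2AK119ub was gained at 198 (7.77%, beside 3.04%) and lost at 86 (3.38%, beside 2.09%). H3K4me1 was gained at 149 (5.85%, beside 3.23%) and lost at 42 (1.65%, beside 1.12%). The members' shares exceeded those of all promoters in both directions for H2AK119ub and H3K4me1. For these marks each control library held fewer island reads than either DOX library, with the exception of H2AK119ub control replicate 2, and the part of depth in these counts was not tested.

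Binding in NCI-H661 was set beside these gains. H3K27ac was gained in DOX at 9.81% of the promoters with a DPPA2/4 consensus peak in NCI-H661 and at 11.5% of those without one. It was gained at 10.5% with a SUZ12 peak and 10.3% without. The share with H3K27ac in both DOX libraries was 49.0% with SUZ12 and 70.6% without, and in both control libraries 28.3 and 43.8%. Both marks stood at 15% of the SUZ12 promoters and 30.3% of the others in DOX, and at 7.95 and 12.7% in control. The promoters with a SUZ12 narrow peak were thus less often acetylated in NCI-H1299 in either condition. Gains here are shares of every promoter in a group, whereas only promoters without a control island could gain. With unequal control shares, similar shares of gains do not show similar rates among the promoters that could gain. The same limit holds for the split by consensus peak.

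Individual promoters illustrate the patterns. At 148 promoters (5.81%) both marks were called in all 8 NCI-H1299 libraries, beside 1.58% of all promoters, and at 170 (6.67%) neither was called in any, beside 30.0%. ODC1 belonged to the first kind, with H3K27ac log2 folds of 1.65 and 2.45 in DOX and 1.74 and 1.98 in control, and H2AK119ub folds of 1.64 and 1.51 in DOX and 1.21 and 1.44 in control. VGF likewise had H3K27ac folds of 1.94 and 1.96 in DOX and 2.35 and 2.26 in control, and H2AK119ub folds of 1.65 and 1.90 in DOX and 1.21 and 1.21 in control. CYP26A1 had no island of either mark in any NCI-H1299 library, as did MEIOC, a meiotic regulator, NAGS, an enzyme that supports the urea cycle, and FBLN5, a protein of elastic fibres. Folds in NCI-H1299 are given as levels only, since the files also give a finite fold to islands with 0 input reads.

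FAM171A1 and PTPN3 gained H3K27ac in the sense above. FAM171A1 had folds of 3.07 and 5.18 in DOX and no island in control, and PTPN3, a tyrosine phosphatase, 5.14 and 4.41 in DOX and none in control. PTPN3 had H2AK119ub in all 4 libraries, at 2.69 and 2.54 in DOX and 1.98 and 4.49 in control. ENGASE, a deglycosylating enzyme, had H3K27ac folds of 1.89 and 1.75 in DOX and no island in control. CDC14B, a phosphatase, and CTDSP2, another phosphatase, had H2AK119ub in both DOX libraries, at 1.95 and 2.70 and at 3.83 and 4.54, and in neither control library, with H3K27ac in all 4. DLX1 had H3K27ac folds of 1.50 and 1.41 in DOX and 4.42 and 3.62 in control, and H2AK119ub in no DOX library and at 3.59 and 1.79 in control.

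By gene list, H3K27ac in both libraries of a condition was found at 10 of the 19 HOX promoters in DOX and 8 in control. It was found at 7 of the 11 semaphorin and plexin promoters in DOX and 1 in control, and at 6 of the 10 promoters of the BMP, activin and nodal list in DOX and 0 in control. INHA, the inhibin alpha subunit, had folds of 1.92 and 4.67 in DOX, and 1.15 in 1 control library. All 6 PRC1 promoters had H3K27ac in DOX and 2 had it in control. Larger lists were higher in DOX as well, such as the numbered ZNF genes (31 of 37 in DOX and 20 in control) and the solute carriers (39 of 67 and 26). Some lists differed little or the other way. The mesenchymal genes had it at 7 of 9 in DOX and 6 in control, and the cytosolic ribosomal proteins at 4 of 5 in each. The neuropeptide and neuroendocrine genes had it at 1 of 3 in DOX and 2 in control. These counts compare with 1681 of 2548 promoters in DOX and 1032 in control.

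Quantities were tested where islands covered at least 50% of a joined region in all 4 libraries of a mark, on the deposited read counts with edgeR's quasi-likelihood test, the replicate number as a block, and regions were called where the adjusted p was under 0.05 and the log2 change reached 0.5 in either direction. For H3K27ac, 263 of the 2538 member regions could be tested and 0 were called (0% of the 3436 regions over the genome). There were 12 at an unadjusted p below 0.05 (4.56%, against 5.47% over all regions). DESeq2 called 0 and had 0 at that limit, against 11 over all regions. The median log2 change, DOX over control, was 0.06 at member regions and -0.01 over all. It was positive at 62.7% of member regions and 47% of all. In each fit counts were scaled on the tested regions themselves, so a shift common to these regions could not be seen. For H2AK119ub, 30 of 3315 member regions were tested, with 0 called by either tool (0% of 132). In edgeR 0 stood at an unadjusted p below 0.05, against 3.79% over all regions. For H3K4me1, 532 of 3609 were tested and 0 called by either tool (0.0282% of 7095). At an unadjusted p below 0.05 stood 43 in edgeR (8.08%, against 8.46% over all regions) and 1 in DESeq2 (30 over all regions). The median was -0.06, against -0.01 over all regions. For H3K9me3, 0 of 61 member regions met the coverage limit. Most member regions thus could not be tested, and a p that misses the threshold does not show equal levels. Regions lacking an island in any of the 4 libraries were outside these fits, so islands present in only DOX or only control were not tested.

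For H3K36me3, 117 of 561 member regions were tested and 1 was called (0.21% of 7146 regions). It was a region of 20000 bp at PRPF6, a splicing factor gene (chr20:63982001-64002000), with 722 and 678 reads in DOX and 379 and 444 in control. Both DOX libraries were above both control libraries, at 402 and 388 against 252 and 292 CPM (reads scaled by library size). The log2 change was 0.54 ± 0.13 (SE, edgeR adjusted p = 0.0114, n = 2 libraries each). The call was lost without the block (edgeR adjusted p = 0.0752), with DESeq2 (1) and without DOX replicate 2 (0.98), and per covered length the change was 0.02.

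Without the coverage minimum, 974 H3K27ac member regions could be tested and 5 were called, beside 12 of 10307 regions over the genome (0.116%), all of them higher in DOX. The 5 included regions at ABCC3, TSC22D2 and CDK6, named here after their values were seen. CDK6, a cell cycle kinase, had 565 and 267 island reads in DOX and 32 and 65 in control (log2 change 2.18, edgeR adjusted p = 0.0138). In such regions a library's count covers only the part called as an island, so uncalled signal is missing from the lower condition. Each library still had to hold an island in the region. For H3K36me3 12 of 230 were called in this way, 11 of them higher in DOX, beside 183 of 23356 over the genome (0.784%), of which 159 were higher in DOX.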

How the data were processed

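Of 42 samples, the 38 ChIP-seq libraries with deposited lists were used. Per the study's methods, the authors mapped their reads to hg38 and called islands of histone marks in each replicate with EPIC2 (100 bp bins, FDR 0.05), and narrow peaks of DPPA2, DPPA4 and SUZ12 with MACS2 (q 0.05), both against input. EPIC2 lists of the factors, named with the same bin and FDR, and a narrow peak list of KDM2A, whose settings are not given in the sources used here, were also deposited. The submitters' processing notes list BWA 0.7.13, Trim Galore 0.6.6, MACS2, Picard 2.6.0, SAMtools 1.9 and deepTools 3.5.0. Each deposited EPIC2 island comes with read counts of the ChIP and of the input, a log2 fold change, a score, and a p-value with its FDR. Each deposited narrow peak holds a fold enrichment (a ratio), a score and −log10 p and q values. H3K4me3, H3K27me3 and CUT&RUN were not analysed here, and the blacklist was not used here.

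Islands and peaks were kept on standard chromosomes at log2 fold above 1 and FDR or q below 0.05. Consensus peaks needed more than 25% of each peak to overlap its partner. Promoters came from GENCODE 44, and 0 of 2649732 islands passed a chromosome end. A log2 fold printed for a promoter is that of its strongest island, and reads are those of that island. Regions joined the islands of the 4 libraries of a mark, and summed deposited counts were fitted with edgeR 4.0.16 (TMM, R 4.3.3), with DESeq2 1.42.0, other size factors, no coverage minimum, covered length as offset, no block and single libraries left out as alternatives. The scripts were tested on simulated data. The study states that experiments were replicated in complete batches, which is why the replicate number was a block. Deviations of same-numbered libraries correlated at 0.25 for H3K27ac and, for the other marks, at 0.08 (H2AK119ub, H3K9me3), 0.07 (H3K36me3) and 0.04 (H3K4me1). Replicates are not stated to be separate cultures, so p-values measure only the spread between these libraries. Intervals are 95% Wilson intervals and cover counting error only.

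The members and lists were chosen with earlier results of these data known. Named genes were those the study singled out, the 10 highest by the lowest of 4 fold percentiles (1 per H2AK119ub domain), up to 4 per list, up to 5 per NCI-H1299 pattern, called regions, and promoters next to the limit. Comparisons between promoter classes carry no test. Some genes that these rules would name are not reported here.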

Additional observations from a re-analysis of the deposited data

How the results depend on the processing

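The set of promoters with both marks had 1100 members at a log2 fold above 2 and 2589 to 4240 without single libraries, the most without H2AK119ub replicate 1. At a log2 fold above 2 the shares at members were 64.3% for the DPPA2/4 consensus, 17.8% for SUZ12, 48.5% for H3K4me1, 6.45% for H3K36me3 and 2.09% for H3K36me2, and both NCI-H1299 marks stood at 10.5% in DOX and 1.82% in control. Within 500 bp of the TSS (1742 members) H3K4me1 stood at 22.7%, H3K36me3 at 1.15%, H3K36me2 at 3.33% and both NCI-H1299 marks at 14.1% in DOX and 5.91% in control. With all deposited islands these were 68.5% for H3K4me1, 21.5% for H3K36me2 and 33.0% and 21.5% for both marks in DOX and control. With EPIC2 islands for the factors, chosen after seeing the data, the consensus stood at 92.4%, KDM2A at 88.2% and SUZ12 at 36.5%.

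Leaving out single libraries gave 69.8 to 75.2% for the consensus, 74.8 to 75.5% for H3K4me1, 17.2 to 24.9% for H3K36me3, 19.3 to 40.2% for H3K36me2 and 1.53 to 5.42% for H3K9me3, where fewer lists had to hold the promoter. In NCI-H1299 the H3K27ac difference, DOX minus control, was 15.6 to 29.2 points. The H2AK119ub difference was -3.71 to 18.0 points, negative without control replicate 1, and 0.406 points with all deposited islands. With the replicate block, chosen after seeing the data, the paired exact p was 0.50 for either mark, the smallest it can give. Both marks stood at 27.4 to 40.9% in DOX and 13.9 to 24.9% in control.

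With no coverage minimum, member regions called were 5 for H3K27ac (12 of 10307 regions over the genome) and 12 for H3K36me3 (183 of 23356). For H3K36me3 they were 0 with no replicate block, with DESeq2 and per covered length, and 0 to 5 without single libraries (0 to 57 over the genome). The block changed no other call at members. For PRPF6 the adjusted p was 0.0989 with no coverage minimum. The causes were not tested. The H2AK119ub islands of the 10 highest ranked promoters held 15 to 34 reads in replicate 1, and the part of depth in the calls was not tested.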
